A study of Mus musculus with 12 samples.

Results

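The milk protein genes of the mouse mammary gland were read in epithelial cells isolated from 6-week-old, pubertal females, on Affymetrix arrays. They comprise 4 caseins (Csn1s1, Csn1s2a, Csn2 and Csn3), 3 whey proteins (Wap, Lalba and Ltf) and 3 further secreted or membrane-bound proteins of milk (Wfdc18, Mfge8 and Glycam1). All probe sets to which the platform annotation gives exactly 1 symbol, and that symbol is one of these 10 genes, were taken, which gave 16 of the 45101 probe sets and 10 of the 18194 genes named in this way. A probe set was tested if its mean lay at or above the 40th percentile of all probe sets, about 101 intensity units. Of the 16, 13 were tested, at least 1 for each gene, and the 3 that were not all read Csn1s2a.

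The p190B group, 6 arrays, came from FVB/N mice with 2 transgenes, MMTV-rtTA and TetO-p190B-IRES-luciferase. The control group, 6 arrays, came from FVB/N mice with MMTV-rtTA alone. From 5 weeks of age all mice were fed doxycycline at 2 g/kg of chow, and cells were taken 7 days later, so the controls share the activator transgene and the drug. MMTV-rtTA makes a doxycycline-responsive activator under a mammary tumour virus promoter, which is itself active mainly in mammary epithelium, and TetO-p190B is switched on by it. The p190B protein is a product of the gene Arhgap5. The arrays of a group are labelled as biological replicates.

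Caseins are the phosphoproteins that carry calcium phosphate in milk as micelles, and their genes lie next to one another on a single chromosome. Prolactin, glucocorticoids and insulin act on alveolar cells to switch them on, prolactin through the kinase JAK2 and the transcription factor STAT5. Transcription is strongest in pregnancy and lactation. Some luminal cells of the gland already transcribe casein genes before any pregnancy.

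Array quality and the transgene bear on every value below. Any 2 arrays had a correlation of 0.964 to 0.981 over all probe sets. The log2 3′ over 5′ signal ratio of Gapdh ran from −0.48 to −0.32 in p190B and from −0.52 to −0.47 in control, and that of Actb from 0.31 to 0.59 in p190B and from 0.25 to 0.35 in control. On all p190B arrays except replicate 5 the Gapdh ratio lay above that of every control array. Fits that include this ratio therefore cannot separate it from genotype. The transgene's own gene, Arhgap5, did not pass in any of its 4 probe sets, with log2 differences (p190B minus control) of 0.41 (1423194_at), −0.32 (1450896_at), −0.14 (1450897_at) and 0.10 (1457410_at) and limma adjusted p from 0.258 to 0.925. By limma unadjusted p, 1423194_at (0.00268) and 1450896_at (0.0356) lay under 0.05, in opposite directions. Whether these probe sets read the transgene's transcript was not tested. Luminal keratin and adhesion genes, which define the labelled tissue, were read by all 7 listed genes, with summed intensities of 178735 to 196286 in p190B and 164314 to 208562 in control. T, NK and B lymphocyte genes were present too, at summed intensities of 1055 to 21303 in p190B and 1673 to 20434 in control over 13 genes. Other non-epithelial genes were brighter. Fibroblast genes summed to 177617 to 227424 in p190B and 143267 to 211069 in control over 8 genes. Macrophage genes summed to 32293 to 44201 in p190B and 28733 to 45722 in control over 10 genes. Adipocyte genes summed to 44080 to 51015 in p190B and 44355 to 55880.5 in control over 6 genes, with Fabp4 alone at 41678 to 52717.5 over all arrays. The preparations thus held stromal as well as epithelial signal.

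The α- and β-casein genes had high signal on every array and moved up and down together. Csn2 encodes β-casein, read by 1420369_a_at. Its intensity was 29496 at lowest, 38152 at the median and 47016 at highest in p190B cells, against 24847, 38077 and 44645 in control cells. Control replicates 4 and 5 were the lowest of all, followed by p190B replicate 3, and the groups overlapped over most of their range. The Csn2 log2 difference was 0.15 (SE 0.16, limma adjusted p = 0.830), and 0.05 without control replicate 4 and 0.06 without control replicate 5. The second probe set, 1420370_s_at, gave 0.28 (SE 0.24, adjusted p = 0.760).

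Csn1s1 encodes αS1-casein, which is needed for export of the other caseins from the endoplasmic reticulum. Its intensity was 25954 at lowest, 37174 at the median and 49049 at highest in p190B cells, against 22993, 39033 and 46186 in control cells. The same 3 arrays were lowest, control replicates 5 and 4 and then p190B replicate 3, and p190B replicate 2 was highest. The log2 difference was 0.09 (SE 0.19, adjusted p = 0.929), and it turned to −0.01 without control replicate 4 and to −0.02 without control replicate 5.

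Csn1s2a encodes an αS2-like casein. By 1436170_a_at it had 28147, 36993 and 49649 (lowest, median, highest) in p190B cells and 24614.5, 39490.0 and 44424 in control cells. The order at the low end was again control replicate 5, control replicate 4 and p190B replicate 3. The difference was 0.13 (SE 0.17, adjusted p = 0.872), 0.03 without control replicate 5 and 0.34 with the Gapdh ratio in the fit, and 0.18 (SE 0.19, adjusted p = 0.835) by the second bright probe set, 1420633_a_at. These 2 probe sets followed each other over the 12 arrays with r = 0.99. The 3 untested probe sets of Csn1s2a stayed between 2.6 and 121.4 on all arrays, although 1455579_at carries the same sequence accession as 1436170_a_at.

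The promoters of these 3 caseins and of Wap, which vary together over the arrays as described below, are shown for the letters TTCNNNGAA, the sequence that STAT5 and related factors bind. It reads the same on both strands and was searched in windows from 250 bases before to 50 after the RefSeq gene start (build GRCm38.p6). Capitals mark each match. The windows are chr5:87665958-87666257 (+) for Csn1s1, chr5:87699376-87699675 (−) for Csn2, chr5:87774200-87774499 (+) for Csn1s2a and chr11:6638600-6638899 (−) for Wap.
Csn1s1: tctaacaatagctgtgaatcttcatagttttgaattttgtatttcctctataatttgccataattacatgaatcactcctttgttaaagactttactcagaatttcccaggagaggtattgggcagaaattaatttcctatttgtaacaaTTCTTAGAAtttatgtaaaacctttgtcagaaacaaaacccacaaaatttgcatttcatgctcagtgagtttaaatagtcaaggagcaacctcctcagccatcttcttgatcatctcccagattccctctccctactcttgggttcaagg
Csn2: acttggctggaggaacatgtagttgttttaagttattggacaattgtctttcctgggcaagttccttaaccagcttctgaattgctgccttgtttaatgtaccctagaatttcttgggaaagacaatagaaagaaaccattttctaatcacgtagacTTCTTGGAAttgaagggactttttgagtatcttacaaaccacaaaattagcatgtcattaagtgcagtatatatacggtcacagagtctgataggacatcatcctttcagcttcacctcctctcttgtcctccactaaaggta
Csn1s2a: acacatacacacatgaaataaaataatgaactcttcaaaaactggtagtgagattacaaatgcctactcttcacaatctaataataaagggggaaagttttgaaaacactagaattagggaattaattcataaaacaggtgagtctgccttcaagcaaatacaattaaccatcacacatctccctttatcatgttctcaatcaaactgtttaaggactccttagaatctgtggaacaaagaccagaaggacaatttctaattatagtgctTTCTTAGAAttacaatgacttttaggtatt
Wap: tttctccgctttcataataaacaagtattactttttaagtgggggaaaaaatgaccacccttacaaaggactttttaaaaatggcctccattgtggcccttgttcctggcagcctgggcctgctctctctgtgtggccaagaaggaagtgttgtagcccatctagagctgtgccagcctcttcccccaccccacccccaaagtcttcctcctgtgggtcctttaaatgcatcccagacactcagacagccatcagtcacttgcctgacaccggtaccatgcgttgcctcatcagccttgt
The match began 100 bases before the start of Csn1s1, 93 bases before that of Csn2 and at base 21 after that of Csn1s2a. Glycam1 held TTCCCAGAA, beginning 145 bases before its start. The windows of Wap, Lalba, Ltf, Wfdc18 and Mfge8 held no match. The letters were thus found in 4 of the 9 genes listed in the RefSeq table, and in 8.3% of all 32851 windows. No window was listed for Csn3. A match is a string of letters and was not tested for binding.

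Csn3 encodes κ-casein, which coats the micelle and keeps it in solution. Its probe set 1419735_at read 46292, 50080 and 54587 (lowest, median, highest) in p190B cells, against 41687, 43061 and 51248 in control cells. In 3 of 6 p190B arrays it lay above every control array, and control replicate 2 lay among the p190B values. The log2 difference was 0.17 (SE 0.06, 95% interval 0.04 to 0.29), which did not pass (limma adjusted p = 0.400, unadjusted p = 0.0108). The second Csn3 probe set, 1451851_a_at, read 1352 to 3743, gave 0.12 (SE 0.19) and did not follow the first (r = −0.03 over 12 arrays).

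Csn3 stood close to the highest scaled intensities of each array. It reached 78.8% to 92.0% of the highest intensity on its array. Its 4 highest arrays, p190B replicates 2, 4 and 5 and control replicate 2, were also the 4 arrays with the highest top value, at 64224, 60455, 56592 and 60709, against 50337 to 55322 on the other 8 arrays. The 3 probe sets most like it over the 12 arrays read Rpl8, Eef1a1 and Rpl35, ribosomal and translation genes, at r = 0.96, 0.96 and 0.95. What part the array's range has in the Csn3 values was not tested.

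**Figure D1:**
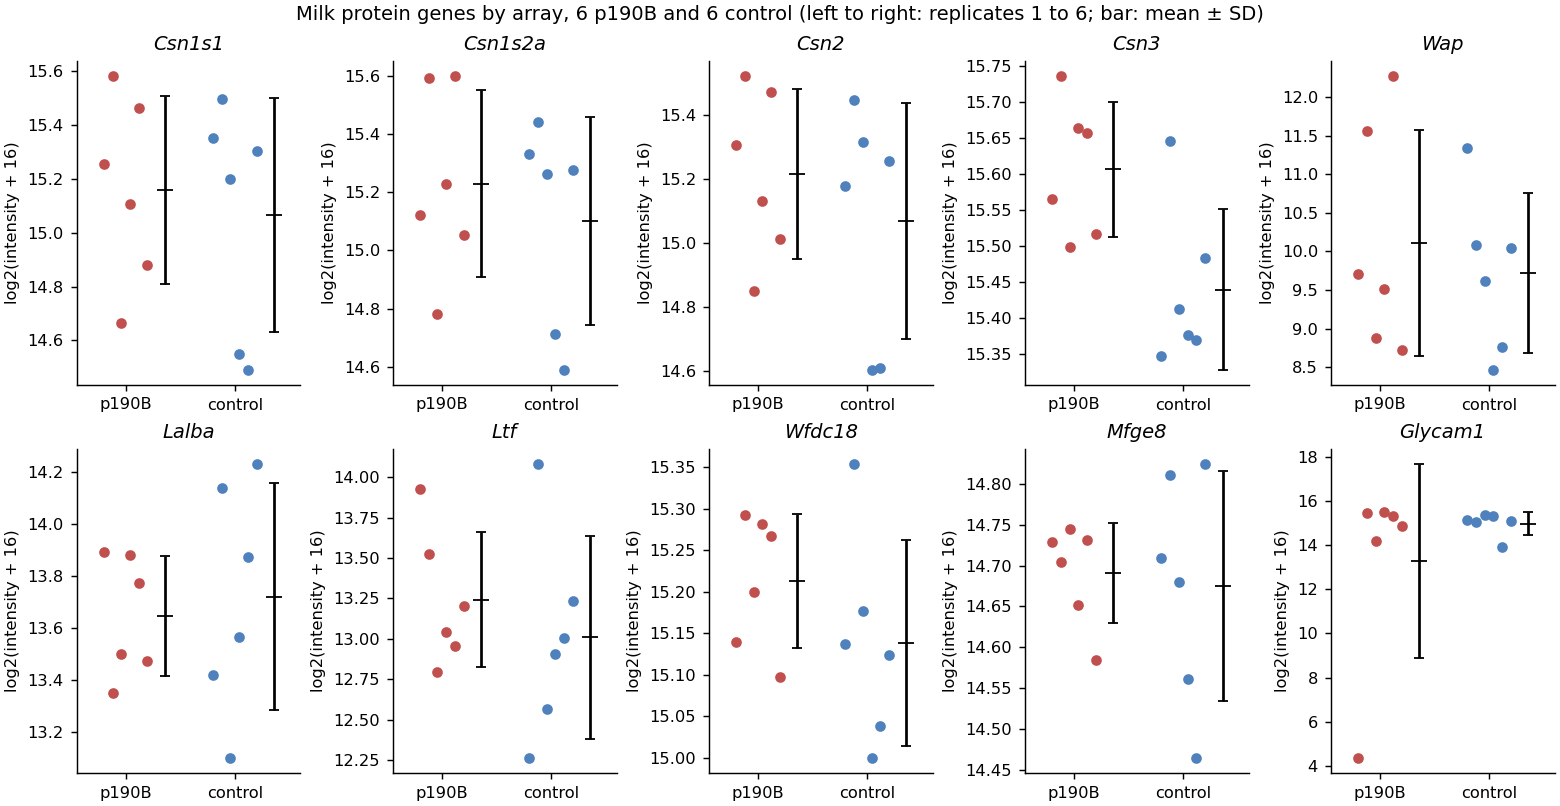
Each panel plots 1 milk protein gene as log2(intensity + 16) on 6 p190B and 6 control arrays, replicates 1 to 6 from left to right, with the mean ± SD beside the points. The groups overlap in every panel, and Glycam1 on p190B replicate 1, at an intensity of 4.4, stands far below the other arrays.

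Wap was the member that varied most apart from Glycam1. It encodes whey acidic protein, a small cysteine-rich protein of rodent milk. Its intensity was 404.4 at lowest, 766.8 at the median and 4945.4 at highest in p190B cells, against 336.3, 901.2 and 2574.5 in control cells. p190B replicates 5 and 2 and control replicate 1 were high, and control replicates 4 and 5 and p190B replicates 6 and 3 were low, a 14.7-fold range over all 12 arrays.

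The spread within each genotype was larger than the difference between them. The log2 SD of Wap over the 12 arrays was 1.23, above that of 99.6% of the tested probe sets. Its log2 difference was 0.39 (SE 0.62, 95% interval −0.93 to 1.71, limma adjusted p = 0.903), −0.04 without p190B replicate 5 and 1.197 with the Gapdh ratio in the fit. The Gapdh ratio nearly separates the genotypes, so 1.197 cannot be read as a difference corrected for it.

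Lalba encodes α-lactalbumin, which turns galactosyltransferase into lactose synthase. It read 10442, 12790.1 and 15165 (lowest, median, highest) in p190B cells, against 8767, 13547 and 19191 in control cells. All p190B arrays lay inside the control range, with control replicates 6 and 2 highest and control replicate 3 lowest. The difference was −0.08 (SE 0.17, adjusted p = 0.940), and it turned to 0.01 without control replicate 2 and to 0.03 without control replicate 6.

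Ltf encodes lactoferrin, an iron-binding defence protein of milk that neutrophils also store in granules. It read 7103, 8908 and 15534 (lowest, median, highest) in p190B cells, against 4894, 7926 and 17323 in control cells. Control replicate 2 and p190B replicate 1 were highest, and control replicate 1 lowest. The difference was 0.23 (SE 0.26, adjusted p = 0.842), with 0.08 without control replicate 1, 0.45 without control replicate 2 and −0.02 when the Gapdh ratio was added to the fit. Neutrophil granule genes were dim, with 4 of 11 read genes tested and summed intensities of 1457 to 3883 in p190B and 1257 to 4017 in control. The relation of Ltf to them did not pass (r = −0.34, rho = −0.20, permutation adjusted p = 0.565 and 0.741, 12 arrays). Its most similar genes were Pdia6, Hspa5 and Niban1, of which the first 2 encode chaperones of the endoplasmic reticulum, at r = 0.94, 0.93 and 0.93.

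Wfdc18, which encodes a small secreted protein with the 4-disulfide core fold of whey acidic protein, had a narrow range at 62.5% to 71.0% of the top value of each array. It read 35042, 38526 and 40129 (lowest, median, highest) in p190B cells, against 32743, 35862 and 41867 in control cells. The p190B values all lay inside the control range. The difference was 0.07 (SE 0.06, adjusted p = 0.745).

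Mfge8 encodes a milk fat globule protein that bridges integrins and phosphatidylserine on dying cells. It read 24549, 26909 and 27439 (lowest, median, highest) in p190B cells, against 22592.5, 26503 and 28994 in control cells, again with all p190B arrays inside the control range. The difference was 0.02 (SE 0.06, adjusted p = 0.967). The log2 SD over the 12 arrays was 0.10 for Mfge8 and 0.11 for Wfdc18, lower than in all but 7.84% and 8.93% of tested probe sets. Those include bright and dim probe sets alike, and none were matched for level.

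Of the 4 epithelial lists, 1 passed with Mfge8. Its level rose with the luminal keratin and adhesion list (r = 0.79, rho = 0.94, permutation adjusted p = 0.0344 and 0.00103, 12 arrays), with r = 0.89 within p190B and 0.78 within control. Without the 2 arrays farthest from the median of that list r was 0.74. The luminal progenitor, basal and mature luminal lists did not pass (r = 0.49, 0.38 and −0.10, adjusted p = 0.338, 0.511 and 0.897). Against the macrophage list r was −0.04 (adjusted p = 0.973) and against the fibroblast list −0.24 (adjusted p = 0.687), although macrophages and stromal cells can also make Mfge8. The genes most like it were Stap2, Gpat3 and Adar, at r = 0.93, 0.93 and 0.92.

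Glycam1 encodes a mucin-like protein of milk that is also a product of high endothelial venules, the vessels through which lymphocytes enter lymph nodes. Its intensity was 4.4 at lowest, 35088 at the median and 46133 at highest in p190B cells, against 15429, 35405 and 42218 in control cells. Glycam1 was read by a single probe set, so the 4.4 has no second reading. p190B replicate 1 was the only array near background, and control replicate 5 and p190B replicate 3, at 18657, came next. The other 9 arrays lay between 29310 and 46133. The difference was −1.70 (SE 1.51, 95% interval −4.93 to 1.53, limma adjusted p = 0.785), and it turned to 0.09 without p190B replicate 1.

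The array on which Glycam1 was near background read the other milk protein genes in the range of the remaining arrays. On p190B replicate 1 Csn2 was 40427, Lalba 15165, Mfge8 27135 and Ltf 15534. It had the lowest lymphocyte signal of all arrays, with Cd3d, a T cell receptor subunit, at 14.3 and Ms4a1, the B cell antigen CD20, at 64.7. On p190B replicate 4, where Glycam1 was highest, Cd3d was 3160 and Ms4a1 2026.

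**Figure D2:**
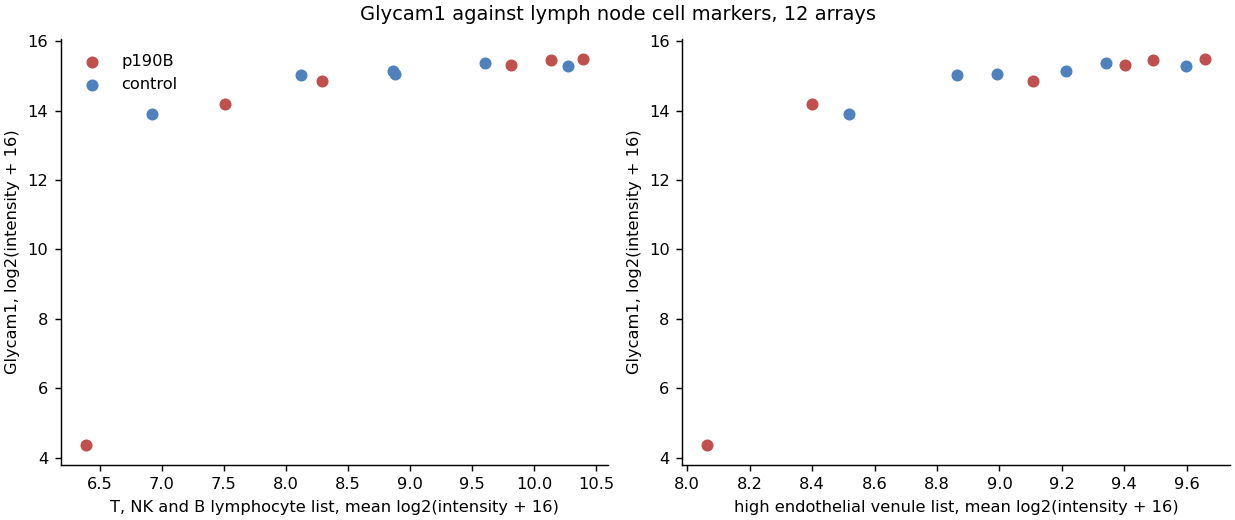
Each point is 1 of 12 arrays, with Glycam1 on the vertical axis and the mean log2 level of the lymphocyte list (left) or of the high endothelial venule list (right) on the horizontal axis. Glycam1 is higher where either list is higher, and p190B replicate 1 lies lowest on both axes.

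Glycam1 rose across arrays with lymphocyte and high endothelial venule markers. Its relation to the T, NK and B lymphocyte list had r = 0.67 and rho = 0.94 (permutation adjusted p = 0.000387 and 0.00103, 12 arrays), with r = 0.79 within p190B and 0.89 within control. Against the high endothelial venule list (Chst4, Fut7, Madcam1, Ackr1 and Chst2, of 6 listed) r was 0.72 and rho 0.92 (adjusted p = 0.000930 and 0.00155). Without the 2 arrays farthest from the list's median the values were r = 0.89 for each list, so the relation did not rest on p190B replicate 1. The neutrophil granule list moved with Glycam1 too (r = 0.65, adjusted p = 0.00258, and rho = 0.79, adjusted p = 0.0505), with r = 0.84 within p190B and 0.75 within control. Lymphocytes and neutrophils also occur outside lymph nodes, and the part of each cell type in the Glycam1 level was not tested.

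The venule markers differed in how far they varied. Chst4, a sulfotransferase of high endothelial venules, read 54.5 on p190B replicate 1 and 641.4 on p190B replicate 4, and Fut7, a fucosyltransferase that makes selectin ligands, 12.5 and 420.9. Madcam1 read 206.3 and 238.9 on these 2 arrays and Chst2 206.4 and 270.1. Both were lowest on control replicate 6, at 160.4 and 176.4. Ackr1, which other vessels also express, stayed between 13778 and 19228. In bulk preparations, fewer cells of a type and less RNA per cell cannot be told apart. How much of the Glycam1 signal came from venules and how much from epithelium was not tested.

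Between genotypes, 0 of the 13 tested milk protein probe sets passed limma at an adjusted p of 0.05, where 0.037% of all 27022 tested probe sets did (10 probe sets). At an unadjusted p under 0.05 the count was 1 of 13, the first Csn3 probe set, beside 9.32% of all tested probe sets (4.51% higher in p190B and 4.81% lower). By each gene's brightest probe set, 8 of the 10 genes had a difference above 0 and 2 below, with a median of 0.11 on the log2 scale, beside 0.02 over all tested. Of all 27022 tested probe sets, 14839 lay above 0 and 12183 below. Csn1s1, Csn1s2a, Csn2 and Wap, all among the 8, vary together over the arrays, so the 8 are not separate observations. Milk protein genes had a median SE of 0.17, beside 0.12 over all tested.

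The intervals set how far this absence of calls reaches. Wfdc18 (−0.05 to 0.20) and Mfge8 (−0.11 to 0.15) had the narrowest 95% intervals of the members, together with Csn3. The caseins Csn1s1 (−0.32 to 0.50), Csn1s2a (−0.23 to 0.48) and Csn2 (−0.19 to 0.48) had wider ones. Those of Wap and Glycam1 were the widest, and each reached beyond −0.9 and 1.5 log2 units.

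**Figure D3:**
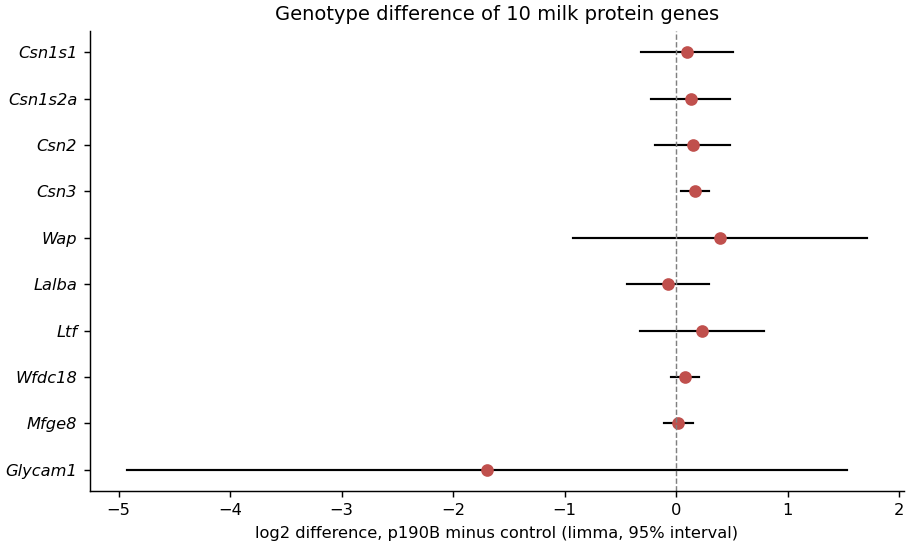
Points are log2 differences, p190B minus control, of the 10 milk protein genes by limma and lines are 95% intervals over 6 arrays against 6. All intervals except that of Csn3, 0.04 to 0.29, include 0, and those of Wap and Glycam1 are the widest.

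Across preparations, the 5 member pairs that passed by both r and rho all lay among the α- and β-caseins and Wap. Csn2 correlated with Csn1s1 at r = 0.97 and rho = 0.92 (permutation adjusted p = 0.000387 and 0.00288) and with Csn1s2a at r = 0.96 and rho = 0.90 (adjusted p = 0.000387 and 0.00310) over the 12 arrays. Within p190B the values of r were 0.995 for Csn1s1 and 0.936 for Csn1s2a, and within control 0.973 and 0.976. Without the 2 arrays farthest from the Csn2 median they were 0.95 and 0.91.

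Wap followed the same preparations. Its rank order matched that of Csn2 with rho = 0.87 (adjusted p = 0.00809), while r was 0.77 and fell just short (adjusted p = 0.0523). It passed by both measures with Csn1s1 (r = 0.83, adjusted p = 0.0217, and rho = 0.93, adjusted p = 0.00155) and with Csn1s2a (r = 0.86, adjusted p = 0.0117, and rho = 0.94, adjusted p = 0.00155). Wap spanned 14.7-fold over the arrays, and Csn2 1.89-fold by its brightest probe set and 2.76-fold by the other. The brightest Csn2 probe set reached up to 80.2% of the top value of an array and Wap up to 8.74%, and what part the array's range has in these spans was not tested.

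Csn3 and Lalba, also products of the lactating alveolus, did not pass with Csn2. Csn3 had r = 0.67 with Csn2 (adjusted p = 0.126) and 0.49 without the 2 arrays farthest from the Csn2 median. Lalba had r = 0.06 with Csn2 (adjusted p = 0.949). Wfdc18 came as near to Csn2 by r as Wap did, at 0.77 (adjusted p = 0.0520), with rho = 0.73 (adjusted p = 0.118). With Csn3, Wfdc18 passed by r (0.82, adjusted p = 0.0217) but not by rho (0.77, adjusted p = 0.0700). In all, 155 relations were computed, 45 between members and 110 between members and the means of 11 cell type lists, and 8 passed by both r and rho. Points of 1 array share a preparation, a scaling and a top value, so they are not free of each other across genes.

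**Figure D4:**
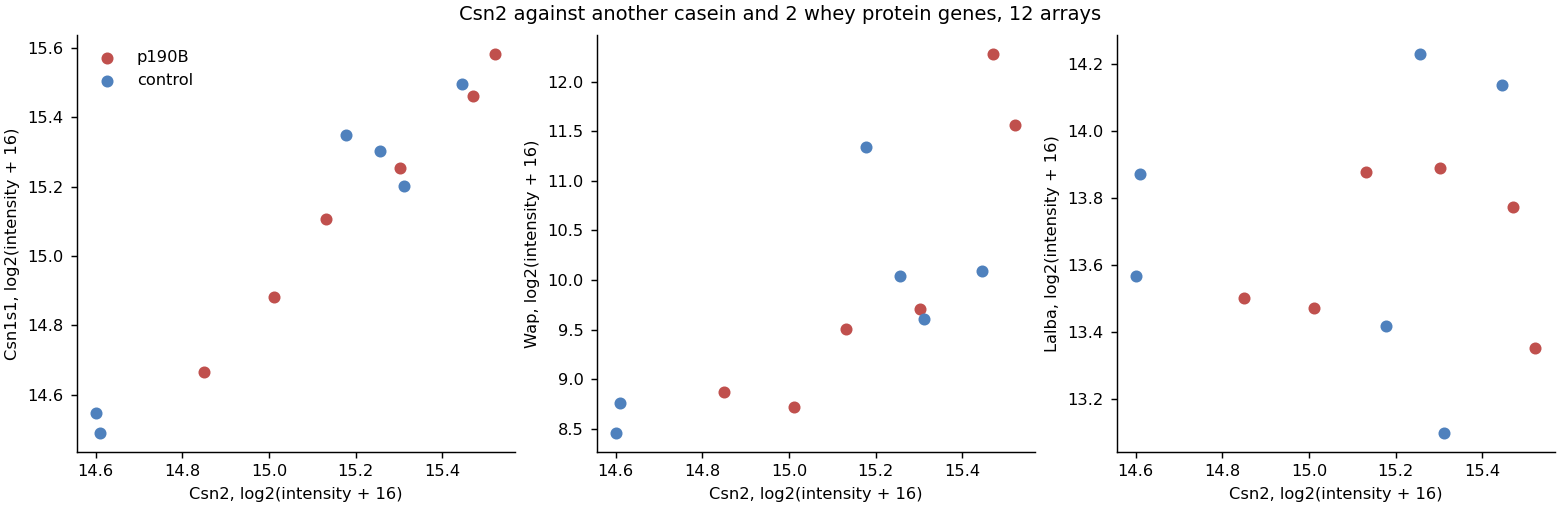
Each point is 1 of 12 arrays, with Csn2 on the horizontal axis and Csn1s1 (left), Wap (middle) or Lalba (right) on the vertical axis, all as log2(intensity + 16). Csn1s1 and Wap are higher where Csn2 is higher (r = 0.97 and 0.77), and Lalba shows no such order (r = 0.06).

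No cell type list passed with Csn2 by r. Csn2 had r = 0.55 with the luminal keratin list (adjusted p = 0.262), −0.01 with the luminal progenitor list (adjusted p = 0.981) and 0.22 with the lymphocyte list (adjusted p = 0.714). The genotypes differed in these values. Within p190B r was 0.05, −0.50 and 0.42 for the 3 lists in this order, and within control 0.76, 0.49 and 0.06. Of the 3 arrays lowest in casein, control replicate 4 had one of the highest mean log2 lymphocyte levels, 10.28, and control replicate 5 and p190B replicate 3 had the lowest after p190B replicate 1, at 6.92 and 7.51. By r the list farthest from 0 was that of endothelial genes, at −0.65, which did not pass (adjusted p = 0.155), and by rho the luminal keratin list, at 0.57, was about level with it at −0.56. The endothelial list, read by 8 of 8 genes, summed to 29748 to 42637 in p190B and 29462 to 41936 in control, and its part in the casein levels was not tested.

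**Figure D5:**
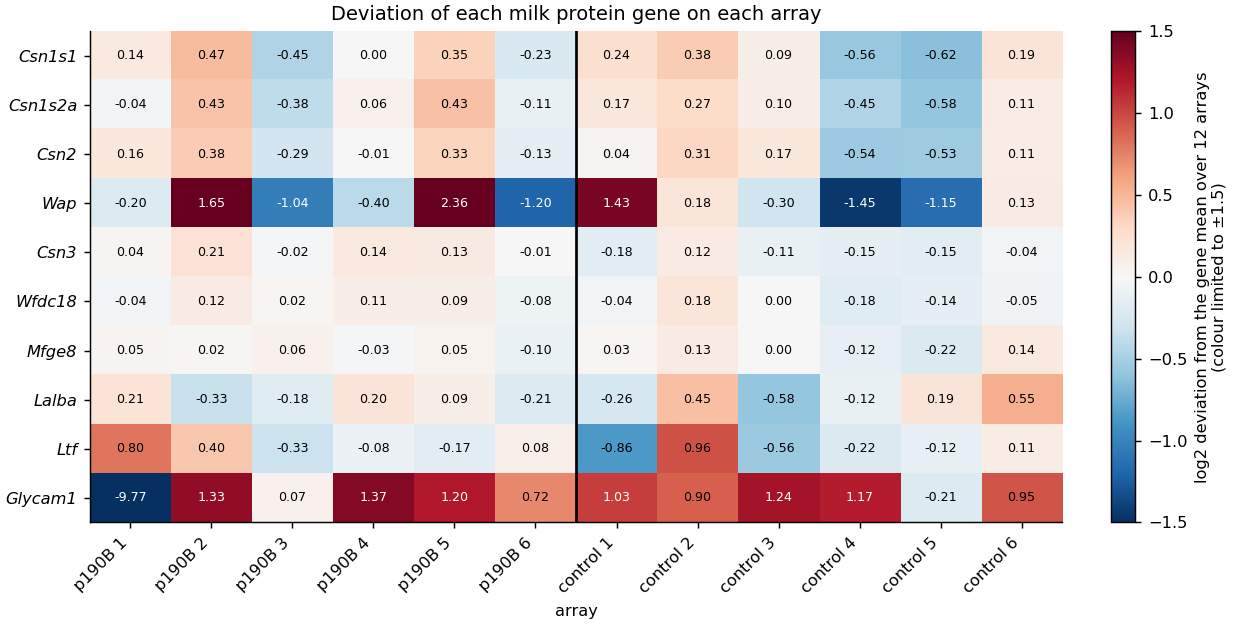
Rows are the 10 milk protein genes, columns the 6 p190B and 6 control arrays, and each cell gives the log2 deviation from the gene's mean over the 12 arrays, with colour limited to ±1.5. Csn1s1, Csn1s2a, Csn2 and Wap are low together on p190B replicates 3 and 6 and control replicates 4 and 5. All of them lie above their means on p190B replicates 2 and 5 and on control replicates 1, 2 and 6.

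Over the 12 arrays, the genes whose pattern was most like that of Csn1s1 were Saa2, an acute-phase serum amyloid (r = 0.93), Ctsa, a lysosomal carboxypeptidase (r = 0.91), and Chil1, a secreted chitinase-like protein (r = 0.89). Chil1 (r = 0.92), Mettl26 and Tysnd1 (both 0.91) led for Csn2, and Ctsa (0.92), Pias1 (0.88) and Cox4i1 (0.87) for Csn1s2a. Chil1 spanned 2830 to 9732 intensity units over the arrays. For Wap they were Zbtb3 (0.92), Bcl2l15 (0.90) and Fabp3, a fatty acid carrier found in the lactating gland (0.90).

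For the remaining members the nearest genes differed. Lalba was nearest to Bend5, Clcn3 and Lipa (0.92, 0.91 and 0.90), Wfdc18 to Rps28, Ly6e and the luminal keratin Krt8 (0.94, 0.92 and 0.92), and Glycam1 to Oit1, Rab3a and Msi2 (0.94, 0.94 and 0.94). The Glycam1 values rest on p190B replicate 1, since rho was 0.15 for Rab3a and 0.55 for Msi2, against 0.89 for Oit1. These genes were picked from all tested probe sets for their likeness over the same 12 arrays, so the values describe and test nothing.

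Lactogenic signalling genes, feedback inhibitors such as Socs2 and Cish among them, did not pass between genotypes either, and the prolactin receptor gene Prlr was not read by a probe set used here. Of 14 listed lactogenic signalling and alveolar factors 13 were tested and 0 passed, with 8 estimates above 0 and 5 below and a median of 0.05. The smallest p belonged to Nr3c1, the glucocorticoid receptor, which averaged 4497 ± 287 in p190B cells and 3769 ± 477 in control cells (n = 6 each, ± SD; 0.26, SE 0.08, limma adjusted p = 0.352). Elf5, the alveolar transcription factor that acts beside STAT5, averaged 13952 ± 1241 in p190B cells and 11497 ± 1738 in control cells (n = 6 each, ± SD; 0.29, SE 0.09, limma adjusted p = 0.355). Stat5a differed by 0.05 (SE 0.22) and Stat5b by 0.05 (SE 0.07).

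Milk fat and lactose genes gave the same count. None of 12 tested milk fat genes passed, with 6 estimates above and 6 below 0 and a median of 0.06. Lpl, which frees fatty acids from lipoproteins, averaged 18805 ± 1734 in p190B cells and 14769 ± 2361 in control cells (n = 6 each, ± SD), with 5 of 6 p190B arrays above all control arrays (0.36, SE 0.10, limma adjusted p = 0.288). The part of adipocytes in the Lpl level was not tested. Olah, the thioesterase that releases medium-chain fatty acids, gave 0.71 (SE 0.31, adjusted p = 0.491). It was dim, at 621.6 on p190B replicate 5, 117 to 226.3 on the other p190B arrays and 98 to 188.3 on control arrays. Of 10 lactose synthesis and transport genes 9 were tested and 0 passed, with 6 estimates above and 3 below 0 and a median of 0.02. Pgm1, phosphoglucomutase, gave 0.16 (SE 0.09, adjusted p = 0.622) and Slc34a2, a phosphate transporter, 0.21 (SE 0.23, adjusted p = 0.841).

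Defence and other milk-borne proteins had 8 of 11 listed genes tested and 0 passed, with 7 estimates above 0 and 1 below and a median of 0.23. Ccl28, the chemokine that draws antibody-secreting cells to the gland, averaged 222 ± 32.9 in p190B cells and 167 ± 36.1 in control cells (n = 6 each, ± SD; 0.39, SE 0.15, limma adjusted p = 0.444). Pigr, the receptor that carries immunoglobulin A into milk, gave 0.52 (SE 0.35, adjusted p = 0.700).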

How the data were processed

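The deposited values are linear intensities of 45101 probe sets on 12 arrays. Per the submitters' processing notes the tool was MAS5, with version and scaling target not given in the sources used here. The 2% trimmed mean was 1000.0 on every array, so the authors' scaling brought all arrays to 1 level. This leaves differences at the bright end, where several milk proteins lie. Arrays have no read depth, and their number limits the precision.

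Intensities were used as log2(value + 16), which understates folds of dim genes. Of 45037 probe sets other than array controls, those at or above the 40th percentile of the mean, 27022, were tested with limma 3.58.1 (R 4.3.3; lmFit and trended eBayes) by a two-sided test, adjusted over all of them by Benjamini-Hochberg. Unless another is named, the brightest probe set stands for its gene.

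Correlations are over arrays, with two-sided permutation p (100000 resamples, Python 3.11.15) adjusted over 155 relations; 1e-05 is the smallest unadjusted p they can give. Named genes are all members, Arhgap5, the 2 smallest p of each pathway list where none passed, and the 3 most similar genes per member; other list genes were chosen after their values were seen. The members and lists were chosen with earlier results of these data known. No coordinates of the array's probes are given, and promoter windows are RefSeq's. The alternatives tried are listed with their effect in the closing section. The limma and permutation steps were tested on simulated data.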

Additional observations from a re-analysis of the deposited data

Results flagged for a closer look

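Of 26 groups of 6 arrays examined over the 13 tested milk protein probe sets, 2 held an array far from the others, both for Glycam1, where chance gives about 1 in 20 groups. The count is near that rate, which holds for independent groups, and some of these probe sets read the same gene. The share over all tested probe sets was not counted. On p190B replicate 1 Glycam1 read 4.4, against 18657 to 46133 on the other p190B arrays. On control replicate 5 it read 15429, against 33234 to 42218 on the other control arrays. These are the 2 arrays with the lowest lymphocyte list, at mean log2 levels of 6.39 and 6.92. The part of lymphocyte or venule content in these values was not tested.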

How the results depend on the processing

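No milk protein probe set passed under any of the 25 other settings, and 234 of 250 gene-level genotype differences kept their sign, with adjusted p of 0.180 at lowest. The median over the 10 genes stayed between 0.04 and 0.19 with 1 array removed. Leaving out 1 array turned Csn1s1 (−0.021 to 0.193), Wap (−0.043 to 0.715), Lalba (−0.199 to 0.026), Mfge8 (−0.026 to 0.046) and Glycam1 (−2.14 to 0.089). With the Gapdh ratio as a covariate Lalba was 0.058, Ltf −0.016 and Glycam1 3.11 (SE 1.71), while Wap was 1.197 and Csn1s2a 0.34 without a change of sign. As that ratio nearly separates the genotypes, these fits cannot tell it from genotype. With 1 array removed Csn2 was 0.054 to 0.223, Csn1s2a 0.025 to 0.218, Ltf 0.083 to 0.447 and Wfdc18 0.047 to 0.118. With the Actb ratio Mfge8 was −0.045 and Glycam1 0.086, without p190B replicates 1 and 3 Mfge8 was −0.0072 and Glycam1 0.31, and with equal medians Mfge8 was −0.013. Beyond the samples left out, the cause was not tested.

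The count over all probe sets, 10, was 5 without the filter, 17 with a filter at the 60th percentile, 28 after quantile normalisation, 3 with equal medians, 3 without trend, 0 with the Gapdh ratio, 1 with the Actb ratio, 24 with the lymphocyte list as a covariate, 5 without p190B replicates 1 and 3, and 4 to 9 with 1 array removed. With the replicate number as a block it was 0. The labels do not say that the numbers pair the samples. Deviations of same-numbered arrays correlated from −0.29 to 0.41, without a test, so a pairing is neither shown nor excluded. The block changed no call on a milk protein gene.

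Relations of Csn2 to Csn1s1 and Csn1s2a and of Glycam1 to the lymphocyte and high endothelial venule lists passed under every setting tried. Wap with Csn2 passed with a pseudocount of 1 (r = 0.78, adjusted p = 0.0495) and without control replicate 1, with r between 0.73 and 0.82 with 1 array removed. Lalba with Csn2 was −0.016 without p190B replicates 1 and 3 and ran from −0.081 to 0.202 without any single array. Mfge8 ran from −0.40 to 0.15 with macrophage and from −0.37 to 0.18 with fibroblast genes, and was 0.30 with fibroblast genes without the 2 arrays farthest from its median. Csn2 with luminal progenitor genes was 0.0081 with a pseudocount of 64, 0.081 after quantile normalisation, 0.059 without the 2 arrays farthest from the list's median, which are p190B replicates 1 and 3, and from −0.20 to 0.17 without any single array.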

Other observations

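Other milk genes also varied between preparations. The genes given here were chosen after their values were seen. Cel, the bile salt-stimulated lipase of milk, read 1429 to 3578 in p190B cells and 1091 to 3171 in control cells. It was highest on p190B replicate 5, control replicate 6 and p190B replicate 2 and lowest on control replicates 4 and 5, the arrays lowest in Csn2. Its log2 difference was 0.27 (SE 0.28, limma adjusted p = 0.818).

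Csn1s2b, the second αS2-like casein, read 89 to 282 in p190B cells and 63 to 244 in control cells, with p190B replicate 5 and control replicate 1 highest, which were also among the highest for Wap. Lcn2, a siderophore-binding defence protein, stayed within 30277 to 39480 in p190B cells and 30424 to 39470 in control cells. Btn1a1, a membrane protein of the milk fat globule, averaged 11974 ± 2227 in p190B cells and 11507 ± 4675 in control cells (n = 6 each, ± SD).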
